A study of Sus scrofa with 56 samples.

Results

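Circulating mononuclear cells of the pig (Sus scrofa) were compared between the 2 runs of an experiment on sows in late pregnancy. All 28 libraries from day 98 of gestation (G98) were taken, of 56 in the series. The labels place 14 in the first experimental replicate (R1) and 14 in the second (R2), and each library came from a different sow. Of the R1 sows, 7 were in conventional and 7 in enriched housing, 7 were in a high parity group (HP, gestation 4 or later) and 7 in a low parity group (LP, gestation 2 or 3). Of the R2 sows, 7 were in conventional and 7 in enriched housing, 6 were HP and 8 LP. Dominance rank was less even, with 6 dominant, 5 intermediate and 3 subordinate sows in R1 against 3, 6 and 5 in R2. All 28 animals were pregnant sows that had farrowed before, and no drug, diet or immune challenge is named for any group. Breed and calendar dates are not stated in the labels used here. Each run was carried out once, so anything else that differed between the runs cannot be told apart from the replicate label. The library codes in the labels also run on without a gap through R1 and then through R2, and what the codes mark is not stated.

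Mononuclear cells are the T cells, B cells, natural killer (NK) cells, monocytes and dendritic cells left after red cells and granulocytes are separated from blood. When such cells are stimulated or stressed they switch on immediate early genes within minutes, transcription factors that need no new protein synthesis, followed by NF-kB target genes, chemokines and feedback inhibitors that end the response. Red cell precursors and young red cells still hold haemoglobin mRNA, which can be carried into preparations of mononuclear cells. In bulk RNA, fewer cells of a type and less RNA per cell cannot be told apart.

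The libraries had 18764208 to 24894794 counts in R1 and 19605147 to 24658423 in R2, so a level of 1 CPM, a count scaled to library size, stood for about 18.8 to 24.9 and 19.6 to 24.7 counts. Mean totals did not differ detectably (permutation test, 100000 resamples, 2-sided, adjusted over 4 library measures, adjusted p = 0.866). Genes with a count above 0 were more numerous in R2, at 14487 to 14777 against 14276 to 14610 (adjusted p = 0.00168). The share of counts in the 10 top genes was 6.30% to 8.83% in R2 and 5.96% to 28.6% in R1 (adjusted p = 0.00944). In 3 R1 libraries, replicates 4, 8 and 14, all from enriched housing, that share was 27.5% to 28.6%, and results below that rest on them are also given without them. Markers of the labelled cells were present throughout. The T cell receptor subunit CD3E ran from 414 to 749 CPM over the 28 libraries, the B cell receptor subunit CD79A from 209 to 449 CPM and the monocyte receptor CD14 from 14.1 to 95.7 CPM. Of 13 granulocyte genes written down, 8 had a symbol in the files and 4 passed the filter on low counts. CSF3R, chosen as a granulocyte marker, reached 263 CPM in R1 and 231 CPM in R2.

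Experimental replicate was the main axis of the data. A principal component analysis of the 500 genes that varied most gave a first component with 20.5% of the variance, of which the R1 or R2 label explained 68%. R1 replicate 3 was the only R1 library on the R2 side of the zero point of that component, at 2.52, and the lowest R2 library was at 3.50. The 3 R1 libraries rich in abundant transcripts had the lowest scores, −25.8 to −23.5. The groups therefore did not overlap on this component. Within each run, scores also tended to be lower where red cell genes held a larger share of counts. In R2 the score was 23.1 at a share of 0.0101% (replicate 11) and 3.75 at 0.834% (replicate 12). In R1 it was 2.52 at 0.0954% (replicate 3) and −16.5 at 5.40% (replicate 5). The parts of run and of red cell share in this component were not tested.

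**Figure D1:**
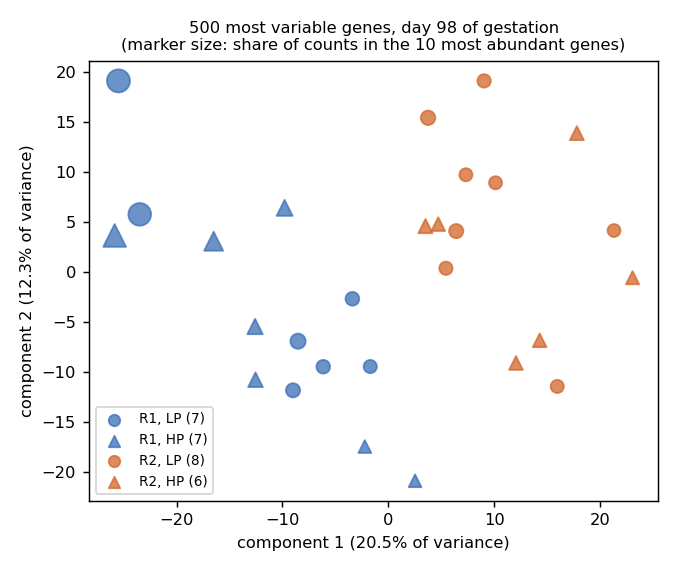
Scores of the 28 libraries on the first 2 principal components of the 500 most variable genes, with colour for R1 and R2, shape for parity group and marker size for the share of counts in the 10 most abundant genes. The 14 R2 libraries sit from 3.50 to 23.1 on component 1 and the 14 R1 libraries from −25.8 to 2.52, with the 3 largest markers at the R1 end.

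With housing and parity group as covariates, 4993 of 12273 genes tested differed between R2 and R1 (edgeR's quasi-likelihood test, Benjamini-Hochberg adjusted p under 0.05), which is 40.7% of genes. In R2 2373 (19.3%) were higher and 2620 (21.3%) lower. Most of these differences were small, with a median size of 0.324 on the log2 scale. A change of more than 2-fold was found for 268 genes (2.18%), 151 higher and 117 lower. For 151 genes (1.23%) every R2 library lay above every R1 library, and for 139 (1.13%) every R2 library lay below every R1 library. These shares of all genes are the background for the counts of gene groups below in this fit. The balance of directions depended on scaling, since 47.5% of calls were higher with the TMM scaling used here, 63.5% with library totals alone and 85.9% with the deposited TPM values, for which the median over all genes moved to 0.19. Other fits used below have their own background. Library totals gave 2768 higher and 1593 lower of 12273 genes, and TPM 4420 and 725. Fits within LP sows gave 1784 and 1916 of 12321, and within HP sows 1490 and 1595 of 12298. Conventional housing gave 876 and 1092 of 12274, enriched housing 1862 and 1779 of 12255, and intermediate sows 1130 and 1120 of 12333.

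The 10 largest rises were in IER3, G0S2, TNFAIP3, CD83, MAFF, DUSP5, NR4A1, CXCR4, RGS1 and HBEGF, with log2 fold changes from 2.34 to 3.56. In 9 of these 10 genes the highest R1 level came from the same library, R1 replicate 1, of a conventional HP intermediate sow. Leaving out a library can only keep or raise the counts of genes without overlap. Without R1 replicate 1 they were 209 higher and 178 lower in place of 151 and 139, and without R2 replicate 4 they were 204 and 207, while each of the other libraries gave 291 to 326 in all.

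IER3, an immediate early gene that protects cells from death under stress, had its lowest, median and highest levels at 0.420, 1.07 and 3.98 CPM in R1 and at 2.33, 10.5 and 106 CPM in R2 (log2 fold change 3.56, SE 0.48, adjusted p = 9.63e-07). Of 14 R2 libraries, 12 lay above the highest R1 library, and R2 replicate 14 stood far above the rest. With each library left out in turn the fold change ran from 3.16 to 3.85. CD83 (gene span chromosome 7, 10346122 to 10385968 in Sscrofa11.1), a surface marker of mature dendritic cells that activated lymphocytes also carry, went from 6.80 to 17.8 CPM in R1 (median 10.4) and 39.6 to 141 CPM in R2 (median 67.0) (log2 fold change 2.67, SE 0.16, adjusted p = 2.27e-12). Its groups were far apart, and among genes with a symbol its p was the second smallest. DUSP5, a nuclear phosphatase that switches off ERK kinases, went from 9.34 to 49.5 CPM in R1 (median 19.1) and 63.1 to 173 CPM in R2 (median 131) (log2 fold change 2.56, SE 0.18, adjusted p = 1.29e-11). All 14 R2 libraries were above all 14 R1 libraries for both genes.

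TNFAIP3 (chromosome 1, 26474158 to 26489771) encodes A20, the ubiquitin-editing enzyme that shuts off NF-kB signalling. It ran from 73.5 to 435 CPM in R1 (median 89.2) and 429 to 1414 CPM in R2 (median 696) (log2 fold change 2.80, SE 0.25, adjusted p = 9.15e-10), and 13 of 14 R2 libraries were above the highest R1 library. That R1 library was replicate 1, at 435 CPM, and the next R1 library was at 109 CPM. CXCR4 (chromosome 15, 15663652 to 15666706), the chemokine receptor that guides white cells to bone marrow and lymphoid tissue, ran from 31.1 to 199.5 CPM in R1 (median 65.3) and 234 to 579 CPM in R2 (median 404) (log2 fold change 2.41, SE 0.20, adjusted p = 2.30e-10), with no overlap. RGS1, which damps signals of such receptors, ran from 15.0 to 127 CPM in R1 (median 22.5) and 85.3 to 242 CPM in R2 (median 141) (log2 fold change 2.35, SE 0.24, adjusted p = 1.12e-08). For RGS1, too, R1 replicate 1 stood apart from the other R1 libraries, at 127 CPM against 39.7 CPM in the next.

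The orphan nuclear receptor NR4A1, switched on by antigen receptor signals in T cells, went from 5.72 to 28.7 CPM in R1 (median 12.3) and 41.2 to 127 CPM in R2 (median 64.9) (log2 fold change 2.48, SE 0.23, adjusted p = 1.83e-09). The small Maf transcription factor MAFF went from 1.25 to 6.75 CPM in R1 (median 1.76) and 8.53 to 31.6 CPM in R2 (median 12.7) (log2 fold change 2.63, SE 0.25, adjusted p = 3.16e-09). Neither gene had an R2 library within the R1 range. G0S2, an inhibitor of fat breakdown named for its rise as lymphocytes leave rest, was scarce in R1, at 0.139 to 3.84 CPM in R1 (median 0.671) and 3.23 to 28.1 CPM in R2 (median 6.76) (log2 fold change 3.17, SE 0.38, adjusted p = 1.71e-07). HBEGF, a membrane-bound growth factor of the EGF family that monocytes release, went from 2.44 to 10.7 CPM in R1 (median 4.08) and 6.68 to 62.4 CPM in R2 (median 20.5) (log2 fold change 2.34, SE 0.27, adjusted p = 8.38e-08). In both genes all 14 R2 libraries were above the R1 median, with 13 and 12 above the highest R1 library.

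**Figure D2:**
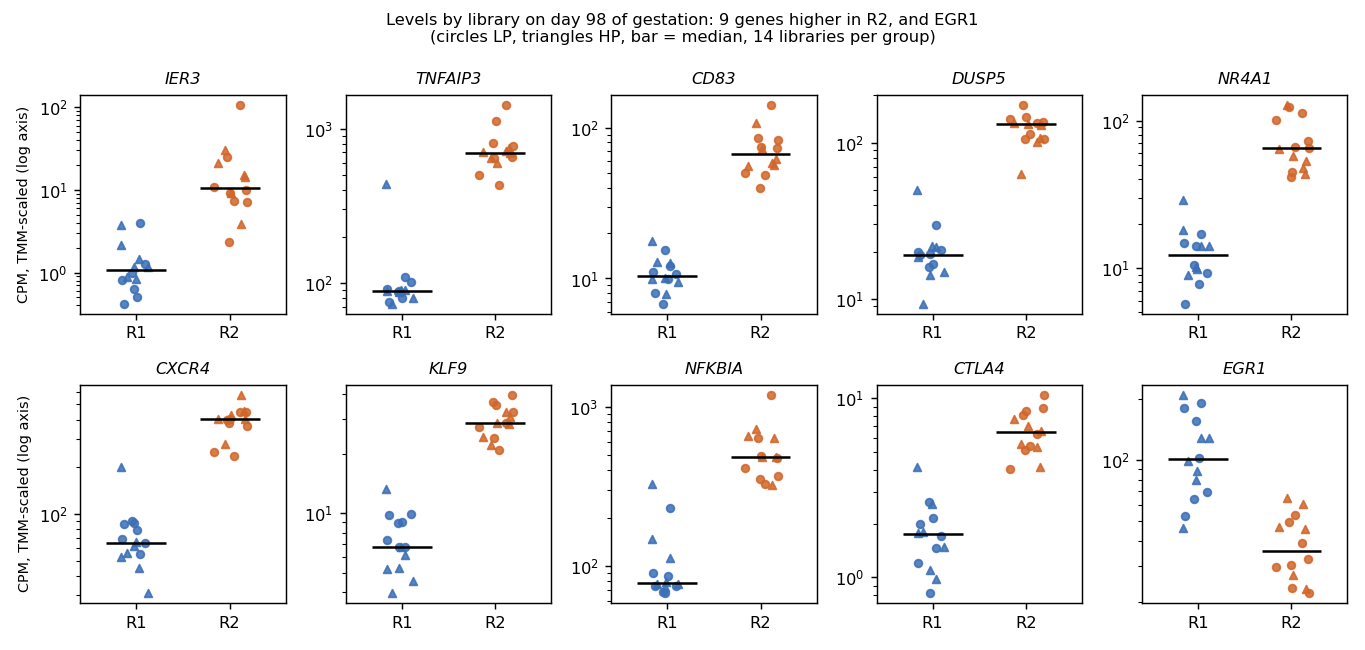
TMM-scaled CPM on log axes for 10 genes in each of the 28 libraries, with circles for LP, triangles for HP and a bar at the group median. CD83, DUSP5, NR4A1, CXCR4 and KLF9 show no overlap, TNFAIP3 has a single R1 library (replicate 1) high among the others, and EGR1 is lower in R2.

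Immediate early genes were higher in R2 as a group, with exceptions. Of 26 genes written down, 24 had a symbol in the files and 23 passed the filter, of which 18 were higher and 1 lower, with a median log2 fold change of 0.96 against 0.0010 over all genes tested. Besides IER3 and NR4A1, the nuclear receptor NR4A2 (2.16, SE 0.17) and the stress-induced factor ATF3 (2.06, SE 0.21) rose most. NR4A2 levels did not overlap, at 12.3 to 29.7 CPM in R1 (median 15.6) and 31.8 to 139 CPM in R2 (median 68.4). The AP-1 subunits JUN (1.19, adjusted p = 3.05e-09) and JUNB (1.04, adjusted p = 1.47e-09) and the phosphatase DUSP2 (1.58, adjusted p = 6.04e-08) were also higher in every R2 library than in any R1 library. The Krüppel-like factor KLF6 (1.02) was higher in all 14 R2 libraries than the R1 median. The AP-1 partner FOS was at 98.5, 211 and 415 CPM (lowest, median and highest) in R1 and 189, 265 and 457 CPM in R2, and its fold change of 0.39 did not pass the test (adjusted p = 0.133).

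EGR1, the zinc finger factor that usually responds together with FOS, went the opposite way. Its levels ran from 46.1 to 209.6 CPM in R1 (median 100.4) and 22.1 to 64.8 CPM in R2 (median 35.7) (log2 fold change −1.53, SE 0.23, adjusted p = 4.92e-06). Every R2 library was below the R1 median and 9 were below the lowest R1 library. In the list, 16 to 19 genes were higher and 1 lower in LP sows, in enriched housing, without the 3 R1 libraries, and with library totals or deposited TPM. In HP sows 15 higher and 1 lower were called, and in conventional housing 14 higher and 1 lower.

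Chemokines that recruit neutrophils and monocytes, and some cytokines, were higher in R2. Of 20 genes written down, 15 had a symbol and 10 passed the filter, with 7 higher, 1 lower and a median of 1.32. CCL4, a chemokine that draws monocytes and T cells, ran from 3.29 to 9.78 CPM in R1 (median 4.92) and 7.83 to 204 CPM in R2 (median 16) (log2 fold change 2.33, SE 0.40, adjusted p = 3.34e-05). A single R2 library, replicate 14, set the top of that range, and the next R2 library was at 42.7 CPM. The neutrophil chemokine CXCL2 ran from 2.11 to 43.0 CPM in R1 (median 6.30) and 16.7 to 129 CPM in R2 (median 36.1) (log2 fold change 2.00, SE 0.40, adjusted p = 0.000213), and CXCL8, interleukin-8, from 0.231 to 4.02 CPM in R1 (median 0.732) and 1.82 to 6.72 CPM in R2 (median 3.66) (log2 fold change 1.72, SE 0.36, adjusted p = 0.000404). For both chemokines all 14 R2 libraries were above the R1 median and 5 above the highest R1 library, so the ranges overlapped in part. The IL-6 family cytokine LIF was at 2.00 (SE 0.33, adjusted p = 2.11e-05) and the anti-inflammatory cytokine IL10 at 1.02 (adjusted p = 8.05e-06), with IL10 at 1.49 to 4.76 CPM in R1 (median 2.93) and 3.77 to 10.1 CPM in R2 (median 5.23). LIF was scarce, with its highest library at 1.05 CPM in R1 and at 4.44 CPM in R2. With a filter of at least 1 CPM in 50% of libraries, 9 listed genes were tested, 6 higher and 1 lower. IL18, an inflammasome-processed cytokine of monocytes, was the member that was lower, at 1.26 to 3.23 CPM in R1 (median 2.49) and 0.675 to 2.48 CPM in R2 (median 1.49) (log2 fold change −0.65, SE 0.19, adjusted p = 0.00709). In conventional housing 4 higher and 0 lower were called (median 0.92) and in intermediate sows 2 higher and 1 lower.

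The NF-kB list was led by inhibitors of the pathway. All 16 members with a symbol were tested, and 10 were higher and 1 lower, with a median of 0.22. The inhibitor NFKBIA, which is itself induced by NF-kB, ran from 67.2 to 324 CPM in R1 (median 77.7) and 323 to 1197 CPM in R2 (median 485) (log2 fold change 2.27, SE 0.26, adjusted p = 5.71e-08). The nuclear regulator NFKBIZ was at 1.48, adjusted p = 2.67e-05, and TNFAIP3 is given above. The subunit gene REL had a smaller difference, at 0.42, adjusted p = 2.79e-06. TNIP3, a partner of A20, was lower, at 3.30 to 10.5 CPM in R1 (median 7.72) and 1.43 to 9.50 CPM in R2 (median 4.17) (log2 fold change −0.62, SE 0.20, adjusted p = 0.0121), with the ranges overlapping over most of their width. In conventional housing alone 6 higher and 0 lower were called.

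Most listed targets of the glucocorticoid receptor were also higher, but not all. Of 12 tested, 9 were higher and 1 lower, with a median of 0.53 and a range from −0.87 to 2.41. CXCR4 and NFKBIA belong to this list too, and the genes named here are all higher ones. The transcription factor KLF9 ran from 3.96 to 13.3 CPM in R1 (median 6.76) and 21.0 to 39.9 CPM in R2 (median 28.7) (log2 fold change 1.99, SE 0.14, adjusted p = 1.29e-11), and DDIT4, an inhibitor of the growth kinase mTOR, from 15.8 to 85.2 CPM in R1 (median 35.2) and 113 to 183 CPM in R2 (median 149) (log2 fold change 1.98, SE 0.17, adjusted p = 3.58e-10). Neither overlapped between the runs. PER1, a clock gene with a glucocorticoid response, ran from 51.4 to 142 CPM in R1 (median 61.4) and 115 to 372 CPM in R2 (median 193) (log2 fold change 1.65, SE 0.17, adjusted p = 1.01e-08). In this list, 6 of the 9 higher genes had their top R1 level in R1 replicate 1. The counts were 9 higher with 0 or 1 lower in LP, in enriched housing, without the 3 R1 libraries and with library totals or TPM. They were 7 higher and 2 lower in HP sows and 7 higher and 0 lower in conventional housing.

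Of 17 circadian clock genes tested, 6 were higher and 1 lower (median 0.099). The repressor BHLHE40, which many stimuli induce outside the clock, ran from 25.2 to 54.9 CPM in R1 (median 35.8) and 64.3 to 298 CPM in R2 (median 108) (log2 fold change 1.72, SE 0.19, adjusted p = 5.00e-08), without overlap. RORA, the nuclear receptor that activates BMAL1, was higher in all 14 R2 libraries than the R1 median (log2 fold change 0.41, SE 0.088, adjusted p = 0.000458), a gene chosen after its values were seen. No sampling hour is given in the labels used here.

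SOCS3, which blocks JAK kinases below cytokine receptors, ran from 55.0 to 187 CPM in R1 (median 86.1) and 112 to 375 CPM in R2 (median 264) (log2 fold change 1.56, SE 0.17, adjusted p = 3.77e-08). STAT3 was slightly lower (log2 fold change −0.17, SE 0.047, adjusted p = 0.00428). In the list of JAK, STAT and SOCS genes 7 of 19 were higher and 7 lower. PMAIP1, the death-promoting BH3 protein NOXA, ran from 25.1 to 66.2 CPM in R1 (median 33.2) and 65.8 to 119.6 CPM in R2 (median 93.4) (log2 fold change 1.45, SE 0.11, adjusted p = 1.24e-10), and 13 of 14 R2 libraries were above the highest R1 library. The survival proteins BCL2A1 (log2 fold change 0.71, SE 0.15, adjusted p = 0.000464) and MCL1 (log2 fold change 0.25, SE 0.063, adjusted p = 0.00276) were higher by less. Of 10 members of the BCL2 family tested, 5 were higher and 3 lower.

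Some stress and metabolic regulators differed far more than the rest of their lists. PFKFB3, the enzyme that drives glycolytic flux, ran from 29.5 to 61.8 CPM in R1 (median 45.0) and 77.2 to 218 CPM in R2 (median 118) (log2 fold change 1.35, SE 0.10, adjusted p = 1.03e-10), with no overlap. The hypoxia factor HIF1A (0.45, adjusted p = 2.28e-05), the vessel growth factor VEGFA (1.29, adjusted p = 1.11e-06) and the peptide hormone ADM (2.47, adjusted p = 3.54e-05) were higher, and the glycolytic enzyme LDHA was lower (−0.34, adjusted p = 0.000550). ADM was scarce, with its highest R1 library at 0.690 CPM. R2 replicate 14 was at 9.26 CPM and the next R2 library at 2.18 CPM, and without replicate 14 the fold change was 2.03. In all, 5 of 16 glycolysis and hypoxia genes were higher and 3 lower. With a filter of at least 1 CPM in 50% of libraries, 15 were tested, 4 higher and 3 lower. PPP1R15A, which restarts translation after stress, ran from 41.9 to 76.1 CPM in R1 (median 55.3) and 110.3 to 281 CPM in R2 (median 152) (log2 fold change 1.54, SE 0.12, adjusted p = 1.54e-10), again with no overlap. The endoplasmic reticulum chaperone HSPA5 was at 0.56, adjusted p = 5.88e-08. Among 16 endoplasmic reticulum stress genes 4 were higher and 5 lower, and among 14 heat shock and chaperone genes 4 were higher, such as BAG3 (0.72, adjusted p = 7.17e-06), and 6 lower. The lower ones included the HSP70 partner DNAJA1, at 194 to 343 CPM in R1 (median 233) and 95.0 to 169.5 CPM in R2 (median 129) (log2 fold change −0.85, SE 0.091, adjusted p = 2.73e-08).

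**Figure D3:**
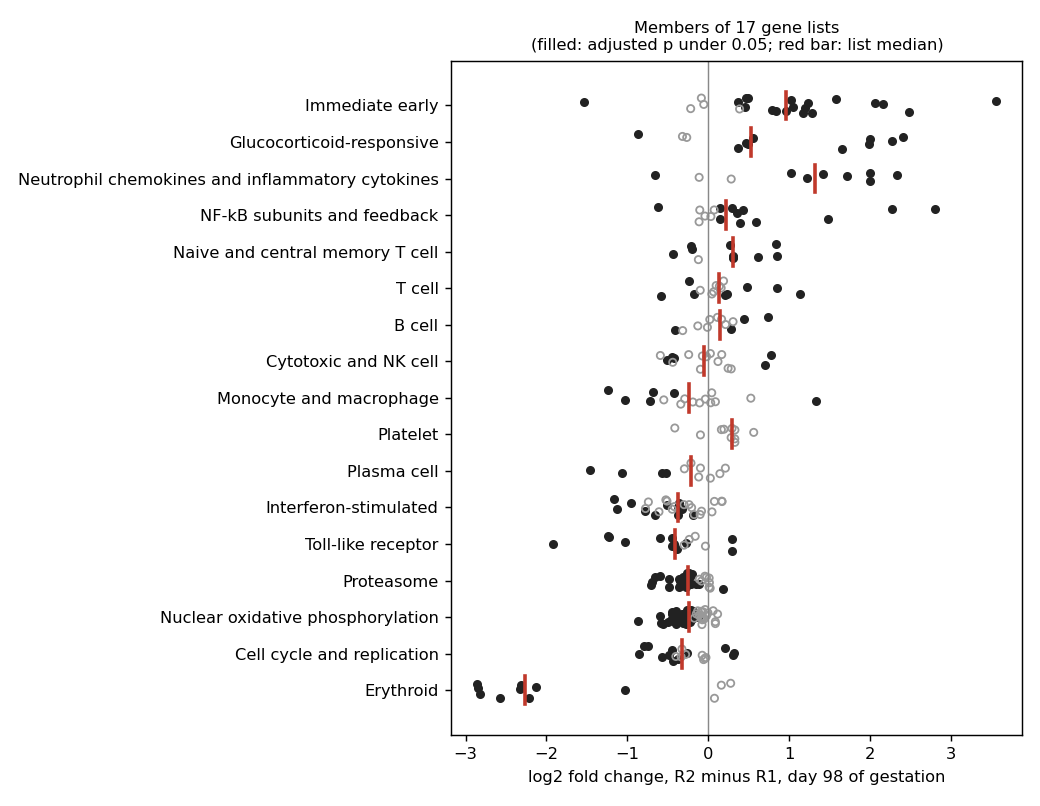
Log2 fold changes (R2 minus R1) of the tested members of 17 gene lists, each point a gene, filled where its adjusted p was under 0.05, with a red bar at the list's median. The medians run from −2.26 for erythroid genes to 1.32 for neutrophil chemokines and inflammatory cytokines, and the lymphocyte lists lie between −0.047 and 0.31.

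T cell genes moved in both directions. Of 15 tested, 5 were higher and 3 lower, with a median of 0.14. The costimulatory receptor CD28 ran from 29.3 to 46.5 CPM in R1 (median 37.9) and 48.8 to 122 CPM in R2 (median 82.7) (log2 fold change 1.13, SE 0.10, adjusted p = 1.38e-09), with no overlap, and the T lineage factor BCL11B was at log2 fold change 0.85, SE 0.089, adjusted p = 1.72e-08. The receptor subunit CD3E was slightly higher (log2 fold change 0.20, SE 0.072, adjusted p = 0.0256) and CD3D slightly lower (log2 fold change −0.17, SE 0.067, adjusted p = 0.0420), although both proteins are part of the same receptor. Leaving out R2 replicate 7 ended the call of CD3E, and leaving out any of 12 libraries ended that of CD3D. TRAT1, an adaptor of the T cell receptor, was lower (log2 fold change −0.58, SE 0.11, adjusted p = 9.31e-05). The summed share of counts over the list was 0.257% to 0.450% in R1 (median 0.372%) and 0.360% to 0.443% in R2 (median 0.389%).

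Among T cell activation and checkpoint genes, 2 of 16 were higher and 4 lower, with a median of 0.047. Over all genes tested 19.3% were higher and 21.3% lower, so the list as a whole was not raised. The 4 lower ones differed by less than the 2 higher ones, none beyond −0.39. The 2 were CD69, the early surface marker that keeps lymphocytes in tissue, at 28.5 to 102 CPM in R1 (median 52.4) and 101 to 240.1 CPM in R2 (median 169) (log2 fold change 1.52, SE 0.18, adjusted p = 1.71e-07), and the inhibitory receptor CTLA4, at 0.818 to 4.15 CPM in R1 (median 1.74) and 4.04 to 10.5 CPM in R2 (median 6.45) (log2 fold change 1.86, SE 0.21, adjusted p = 4.02e-08). Of 14 R2 libraries, 13 lay above every R1 library for CD69 and 12 for CTLA4. Of 11 naive and central memory T cell genes 7 were higher and 3 lower, with a median of 0.30. Their quiescence factors FOXP1 (109 to 153 CPM in R1 (median 123) and 193 to 267 CPM in R2 (median 223), log2 fold change 0.84, SE 0.056, adjusted p = 8.58e-12) and FOXO1 (log2 fold change 0.62, SE 0.064, adjusted p = 1.27e-08) did not overlap between the runs, and the repressor BACH2 was higher by as much as FOXP1 (0.84, adjusted p = 1.04e-08). The trafficking factor KLF2 (−0.44, adjusted p = 6.96e-06), which naive T cells also carry, was lower.

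The B cell, NK cell and dendritic cell lists had called genes in both directions, and the platelet list had none. Over all genes tested 40.7% were called. Of 12 B cell genes 3 were higher and 1 lower, with CD79A at log2 fold change 0.28, SE 0.086, adjusted p = 0.00973, the B lineage factor EBF1 at log2 fold change 0.73, SE 0.17, adjusted p = 0.000947 and SPIB at log2 fold change −0.41, SE 0.16, adjusted p = 0.0446. The surface antigen MS4A1 was at −0.32 (adjusted p = 0.119). The call of SPIB was lost when any of 19 libraries was left out. Of 16 cytotoxic and NK cell genes 2 were higher, the pore-forming protein PRF1 (0.70, adjusted p = 0.000470) and the NK receptor NCR1 (0.78, adjusted p = 5.20e-06), and 3 were lower, among them the receptor KLRK1 (−0.45, adjusted p = 0.0392), a call that leaving out any of 14 libraries ended. NKG7, a granule protein, was at 0.12 (adjusted p = 0.280) and the NK receptor KLRB1 at −0.59 (adjusted p = 0.0779). Of 9 dendritic cell genes the factor IRF8 was higher (0.41, adjusted p = 0.00438) and 1 was lower, and of 10 platelet genes 0 were called (median 0.29), with the platelet chemokine PPBP at 18.4, 184 and 362 CPM (lowest, median and highest) in R1 and 140.1, 187 and 562 CPM in R2. For gamma delta T cells, an abundant group in pig blood, 0 of 7 genes were higher and 1 was lower (median 0.14). The lower one was the HLH inhibitor ID3 (−0.50, adjusted p = 0.0104), which other lymphocytes also express, while SOX13 (0.40, adjusted p = 0.102) and BLK (0.23, adjusted p = 0.181) did not pass.

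Monocyte genes were lower for some members and higher for 1. Of 16 tested, 5 were lower and CEBPB, a factor that inflammatory signals induce, was higher, at 111 to 423 CPM in R1 (median 169) and 315 to 594 CPM in R2 (median 433) (log2 fold change 1.33, SE 0.14, adjusted p = 1.70e-08). CD14, the co-receptor for bacterial lipopolysaccharide, ran from 21.1 to 95.7 CPM in R1 (median 61.0) and 14.1 to 61.2 CPM in R2 (median 37.5) (log2 fold change −0.68, SE 0.20, adjusted p = 0.00686). The scavenger receptor MSR1 was at log2 fold change −1.03, SE 0.39, adjusted p = 0.0368, a call that leaving out any of 12 libraries ended. The alarmins S100A8, at 3.90 to 31.7 CPM in R1 (median 17.5) and 1.65 to 13.5 CPM in R2 (median 6.0) (log2 fold change −1.24, SE 0.28, adjusted p = 0.000667), and S100A12 (−0.72, adjusted p = 0.0162) were lower too. Of these 2 alarmins 0 were called in HP sows, in conventional housing or with the erythroid level as a covariate. On day 11 of lactation 0 were called either, with a median of 0.55. The median of the monocyte list was −0.24 in the count fit and 0.012 with TPM, below the all-gene median of 0.19 there, and its summed share was 0.144% to 0.339% in R1 (median 0.277%) and 0.185% to 0.348% in R2 (median 0.277%). Called members numbered 3 higher and 1 lower in LP sows and 1 higher and 6 lower in HP sows, and with the erythroid level as a covariate 1 higher and 1 lower.

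Red cell transcripts made up most of the largest falls. The 10 were GPX3, HBB, AHSP, HBM, CA2, DMTN, SNCG, SLC4A1, ALAS2 and EPB42, with log2 fold changes from −2.89 to −2.22. The haemoglobin beta gene HBB (chromosome 9, 4800683 to 4801941) had its lowest, median and highest levels at 799.7, 13778 and 118305 CPM in R1 and at 58.1, 2017 and 7978 CPM in R2 (log2 fold change −2.86, SE 0.80, adjusted p = 0.00548). No R2 library exceeded the R1 median, and 4 were below the lowest R1 library. ALAS2, which makes the first intermediate of haem in red cells, ran from 53.8 to 3871 CPM in R1 (median 510.3) and 19.5 to 419 CPM in R2 (median 141) (log2 fold change −2.31, SE 0.65, adjusted p = 0.00520), and AHSP, which chaperones free alpha globin, from 1.97 to 468 CPM in R1 (median 51.8) and 0.189 to 27.3 CPM in R2 (median 7.54) (log2 fold change −2.85, SE 0.70, adjusted p = 0.00187). The membrane anion exchanger SLC4A1 (−2.32), the cytoskeletal proteins DMTN (−2.58) and EPB42 (−2.22) and carbonic anhydrase CA2 (−2.63) fell likewise. The remaining genes were the globin HBM (−2.82), gamma-synuclein SNCG (−2.50) and the secreted glutathione peroxidase GPX3 (−2.89). Reads of near-identical globin copies may be split between genes, so single globin values are uncertain.

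The whole erythroid list held 0.0954% to 10.1% in R1 (median 1.44%) and 0.0101% to 0.834% in R2 (median 0.242%) of the counts. Of 16 genes written down 12 were tested, 9 were lower and 0 higher, with a median of −2.26. The highest level of each of the 9 lower genes was in R1 replicate 8 or 14. Without R1 replicates 4, 8 and 14, chosen after the data were seen, 6 were lower and the median was −1.42, with HBB at −1.98 (adjusted p = 0.0292). R1 replicate 5, also from enriched housing, stayed in that fit with 5.40% of its counts in the list, above every R2 library. The calls depended on the sows included, with 0 higher and 9 lower and a median of −3.82 in enriched housing and 0 higher and 0 lower and a median of −0.56 in conventional housing. In LP sows 0 higher and 0 lower were called (median −1.65) and in HP sows 0 higher and 7 lower (median −2.88). The difference between housing groups passed for 0 of 12273 genes in edgeR's interaction test (1138 at an unadjusted p under 0.05, with no other tool run).

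Erythroid level and run moved together over the libraries, and the number of calls fell to 3191 (1455 higher and 1736 lower) when the summed erythroid level was a covariate. The counts were then 18 higher and 1 lower of the immediate early genes, 7 higher and 0 lower of the chemokine and cytokine genes and 9 higher and 0 lower of the glucocorticoid targets. Some lists lost lower calls in that fit. T cell activation and checkpoint genes had 2 higher and 0 lower, and cytotoxic and NK cell genes 2 higher and 0 lower. Without the 3 R1 libraries 4434 genes were called, 2238 higher and 2196 lower. The immediate early counts were then 17 higher and 1 lower.

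Most genes of the Toll-like receptor pathway, which senses microbial products, were lower in R2. Of 16 Toll-like receptor pathway genes 10 were lower and 2 higher, with a median of −0.41. TLR10, a receptor found mainly on B cells in humans, ran from 3.13 to 9.55 CPM in R1 (median 5.76) and 0.694 to 3.95 CPM in R2 (median 1.61) (log2 fold change −1.92, SE 0.22, adjusted p = 6.14e-08), and TLR1, which pairs with TLR2 to sense bacterial lipoproteins, from 15.8 to 34.0 CPM in R1 (median 23.1) and 6.14 to 17 CPM in R2 (median 8.81) (log2 fold change −1.23, SE 0.14, adjusted p = 3.92e-08). In both genes no R2 library reached the R1 median and 13 and 12 were below the lowest R1 library. TLR4, the lipopolysaccharide receptor, was at log2 fold change −1.24, SE 0.16, adjusted p = 3.96e-07, and LY96, its binding partner MD-2, at log2 fold change −1.03, SE 0.18, adjusted p = 3.85e-05. With TPM, with the erythroid level as a covariate and in LP sows the list had 2 higher and 4 lower, and in conventional housing 1 higher and 4 lower.

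The fractalkine receptor CX3CR1 (chromosome 13, 23944386 to 23957567), carried by patrolling monocytes and by cytotoxic lymphocytes, ran from 9.24 to 23.7 CPM in R1 (median 17.3) and 1.68 to 9.06 CPM in R2 (median 3.21) (log2 fold change −1.95, SE 0.25, adjusted p = 3.53e-07). Its groups did not overlap. CCR4, a receptor of skin-homing and regulatory T cells, ran from 10.5 to 24.6 CPM in R1 (median 17.1) and 3.42 to 11.7 CPM in R2 (median 6.19) (log2 fold change −1.44, SE 0.16, adjusted p = 3.27e-08), with 13 of 14 R2 libraries below every R1 library. Of 13 chemokine receptors tested 6 were lower, and CXCR4 was the 1 that was higher. With TPM and in HP sows 1 was higher and 3 were lower. The summed share of counts over the list was higher in R2, CXCR4 included, at 0.0422% to 0.0651% in R1 (median 0.0530%) and 0.0607% to 0.0936% in R2 (median 0.0792%). Other genes with no overlap, chosen after their values were seen, were the TNF family ligand TNFSF14, at 12.3 to 21.9 CPM in R1 (median 16.5) and 3.65 to 8.25 CPM in R2 (median 5.75) (log2 fold change −1.49, SE 0.097, adjusted p = 8.29e-12), the F-box protein FBXO34, at 61.3 to 86.2 CPM in R1 (median 72.6) and 32.7 to 45.4 CPM in R2 (median 37.1) (log2 fold change −0.95, SE 0.056, adjusted p = 2.27e-12), and the small membrane protein SMIM26 (log2 fold change −1.64, SE 0.15, adjusted p = 1.36e-09). FBXO34 had the smallest p among genes with a symbol. The complement receptor C3AR1 was also lower (log2 fold change −1.29, SE 0.25, adjusted p = 0.000135).

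The lists of antibody-secreting cells and of the interferon response had lower members and no higher ones. Of 11 plasma cell genes 4 were lower, among them the immunoglobulin joining chain JCHAIN, at 64.0 to 343 CPM in R1 (median 184) and 42.2 to 129.6 CPM in R2 (median 61.4) (log2 fold change −1.46, SE 0.22, adjusted p = 4.32e-06), the survival receptor TNFRSF17 (log2 fold change −1.07, SE 0.20, adjusted p = 0.000106) and the chaperone MZB1 (log2 fold change −0.58, SE 0.15, adjusted p = 0.00240). All 14 R2 libraries were below the R1 median of JCHAIN and TNFRSF17. In enriched housing 0 higher and 1 lower were called in the list and with TPM 1 higher and 2 lower. Of 28 interferon-stimulated genes 11 were lower and 0 higher, with a median of −0.38. The antiviral protein IFIT2 ran from 58.0 to 169.6 CPM in R1 (median 86.1) and 23.6 to 105 CPM in R2 (median 45.5) (log2 fold change −0.95, SE 0.22, adjusted p = 0.00117) and the chemokine CXCL10 from 1.91 to 13.1 CPM in R1 (median 4.18) and 0.718 to 4.95 CPM in R2 (median 2.24) (log2 fold change −1.13, SE 0.33, adjusted p = 0.00671). The signalling factor IRF9 was lower by a small amount, at −0.36 (SE 0.04), in 14 of 14 libraries against the R1 median, and the low-level gene OASL was at −1.16, adjusted p = 0.0206. The ubiquitin-like protein ISG15 was at 0.17 (adjusted p = 0.538). In LP sows 0 higher and 2 lower were called and in HP sows 0 higher and 16 lower, and with TPM 1 higher and 4 lower. In conventional housing the interferon-stimulated list had 0 higher and 2 lower (median −0.012). In enriched housing it had 0 higher and 14 lower (median −0.55).

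**Figure D4:**
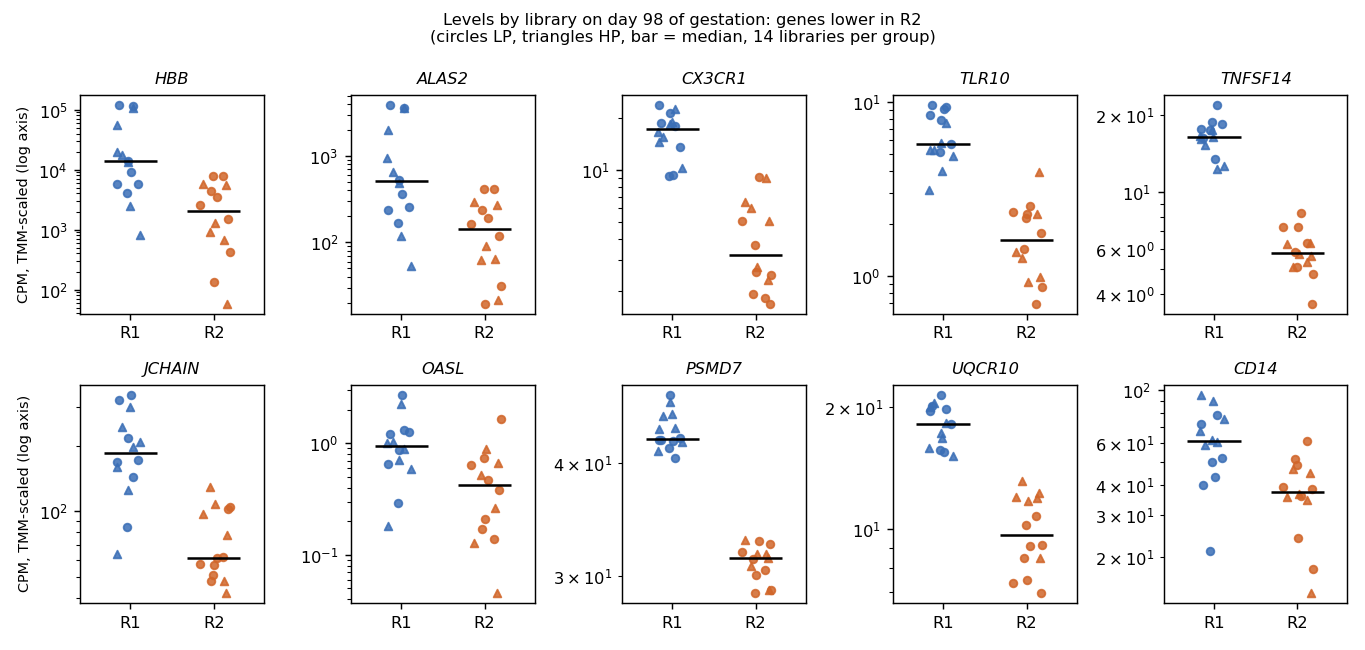
TMM-scaled CPM on log axes for 10 genes that were lower in R2, in each of the 28 libraries, with circles for LP, triangles for HP and a bar at the group median. CX3CR1, TNFSF14, PSMD7 and UQCR10 show no overlap, and HBB and ALAS2 spread over more than 10-fold within each group.

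Most proteasome genes and most nuclear genes of the respiratory chain were lower by small amounts. Of 33 proteasome genes, whose products cut up tagged proteins, 24 were lower and 1 higher, with a median of −0.25 and a range from −0.71 to 0.18. PSMD7, a lid subunit, ran from 40.4 to 47.6 CPM in R1 (median 42.5) and 28.7 to 32.9 CPM in R2 (median 31.4) (log2 fold change −0.48, SE 0.032, adjusted p = 8.59e-12), and the core subunit PSMA5 from 25.7 to 40.6 CPM in R1 (median 35.4) and 16.4 to 25.4 CPM in R2 (median 21.2) (log2 fold change −0.71, SE 0.063, adjusted p = 9.92e-10). Both were lower in every R2 library than in any R1 library. The core subunits PSMA4 (−0.60, SE 0.059) and PSMA1 (−0.36, SE 0.070) and the immunoproteasome subunit PSMB8 (−0.35, SE 0.047) were lower as well. Of 58 nuclear genes of oxidative phosphorylation 38 were lower and 0 higher, with a median of −0.24 and a range from −0.87 to 0.11. UQCR10, a subunit of complex III, ran from 15.1 to 21.4 CPM in R1 (median 18.2) and 6.96 to 13.1 CPM in R2 (median 9.66) (log2 fold change −0.87, SE 0.085, adjusted p = 5.36e-09), without overlap. The iron-sulphur protein UQCRFS1 (−0.34, SE 0.039) and the complex I subunits NDUFV2 (−0.45, SE 0.054), NDUFA6 (−0.40, SE 0.053) and NDUFB1 (−0.59, SE 0.11) were lower, and cytochrome c, CYCS, was at 0.11 (adjusted p = 0.243).

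In LP sows 0 higher and 35 lower oxidative phosphorylation genes were called (median −0.35), in HP sows 1 higher and 12 lower (median −0.099) and in conventional housing 0 higher and 19 lower. For the proteasome 1 higher and 24 lower were called in LP and 1 higher and 13 lower in HP sows. The calls in these lists depended on the unit, while their position against all genes hardly moved. With TPM, 5 higher and 6 lower proteasome genes were called (median −0.051) and 4 higher and 10 lower oxidative phosphorylation genes (median −0.048), both medians below the 0.19 of all genes. Relative to the all-gene median of the same fit, the proteasome median was −0.252 in the count fit and −0.24 with TPM. For oxidative phosphorylation these values were −0.24 and −0.237. Gene length moved with direction across the whole table. Among 809 genes under 1000 bases 9.64% were higher and 25.2% lower (median −0.096), and among 3868 genes of 4000 to 8000 bases 25.4% were higher and 16.8% lower (median 0.048). The median ratio of effective to full gene length, which reflects fragment size, was 0.767 to 0.773 over the 28 libraries and did not differ detectably between runs (permutation test, adjusted p = 0.188). The part of length in the proteasome and respiratory chain results was not tested.

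Of 20 cell cycle and replication genes 9 were lower and 3 higher, with a median of −0.33, and in enriched housing 2 higher and 1 lower. The mitotic cyclin CCNB1 (log2 fold change −0.86, SE 0.17, adjusted p = 0.000186) and its kinase CDK1 (log2 fold change −0.80, SE 0.19, adjusted p = 0.00107) were lower. Sterol synthesis enzymes CYP51A1 (−0.62, adjusted p = 7.04e-07) and HMGCS1 (−0.46, adjusted p = 0.00164) were among 6 lower members of 19 cholesterol and fatty acid synthesis genes, of which 2 were higher. Of 45 cytosolic ribosomal protein genes 7 were higher, such as RPL4 (0.27, adjusted p = 0.000707), and 7 lower, such as RPS16 (−0.47, adjusted p = 0.00309). With TPM 22 higher and 0 lower were called, against 4420 and 725 of all 12273 genes. With library totals 11 higher and 5 lower were called, against 2768 and 1593 of all genes. Relative to the all-gene median of the same fit, the list median was 0.041 in the count fit and 0.050 with TPM. The counts were 0 higher and 13 lower in LP sows and 18 higher and 0 lower in HP sows, and the 24 genes for which the difference between parity groups passed include none of these 45. Of 12 mitochondrially encoded genes the complex I subunit ND3 was higher (0.59, adjusted p = 0.000254) and 1 was lower. MHC class II genes, which present antigen to helper T cells, had 3 of 6 higher, among them the invariant chain CD74, at 2549 to 3705 CPM in R1 (median 3051) and 2586 to 4717 CPM in R2 (median 3567) (log2 fold change 0.28, SE 0.066, adjusted p = 0.00116).

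Collagen and stromal genes, which mononuclear cells should lack, were called in 0 of 9 cases, with a median of 1.71. COL1A1 ran from 0 to 33.2 CPM in R1 (median 3.01) and 0.169 to 595 CPM in R2 (median 13.8), at 1.95 (SE 1.22, adjusted p = 0.209), and the matrix protein DCN from 0 to 10.2 CPM in R1 (median 1.48) and 0.169 to 77.0 CPM in R2 (median 5.39), at 1.71 (SE 0.99, adjusted p = 0.176). In each gene 4 R2 libraries were above the highest R1 library, and the ranges overlapped. The highest R2 library of both was replicate 7, with the next at 57.2 CPM for COL1A1 and 31.7 CPM for DCN, and without it the fold changes were 1.33 and 1.04. In conventional housing 7 higher and 0 lower were called (median 4.02) and in enriched housing 0 higher and 0 lower (median −0.36). Without the 3 R1 libraries 7 higher and 0 lower were called.

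The run difference was also fitted within each parity group. It gave 3700 calls in the 15 LP libraries and 3085 in the 13 HP libraries, and 3641 in the 14 enriched and 1968 in the 14 conventional libraries. The difference between parity groups itself passed for 24 of 12273 genes in edgeR's interaction test (2327 at an unadjusted p under 0.05). Among these, chosen after their values were seen, were NDUFB1, at −0.97 in LP and −0.12 in HP, and the mitochondrial chaperonin HSPE1, at −0.45 and 0.089. The amino sugar kinase NAGK was at 0.025 in LP and −1.14 in HP, and the chemokine CCL14 at 0.34 and −0.72.

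The same contrast was fitted in the 28 libraries of day 11 of lactation (L11), 14 per run. They share no library with G98, but 26 pairs of sow and run are the same animals and 2 sows have an L11 library in each run, so they are not separate evidence. At L11 5322 of 12298 genes differed (43.3%), 2704 higher (22%) and 2618 lower (21.3%). Both stages called 2957 genes, which is 59.2% of the G98 calls and 55.6% of the L11 calls, with 2703 in a common direction and 254 in opposed directions. The difference itself, tested over 52 libraries with a term per sow, passed for 2564 of 12729 genes (20.1%). The L11 libraries carry a separate series of library codes from the G98 libraries, and what the codes mark is not stated. A difference between stages therefore cannot be told apart from a difference between the code series.

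Most immediate early genes were higher in R2 at both stages. Of the 23 immediate early genes 17 were higher and 3 lower at L11 (median 0.94). CD83 was at 2.67 at G98 and 3.43 at L11, DUSP5 at 2.56 and 2.44, CXCR4 at 2.41 and 2.31 and TNFAIP3 at 2.80 and 2.61. Of these 4 the difference between stages passed for CD83 (0.81, SE 0.26, adjusted p = 0.0255). NR4A3, a nuclear receptor close to NR4A1, was at 0.96 at G98 and 3.31 at L11, and its difference passed (2.31, SE 0.38, adjusted p = 0.000112). JUN (−0.83, SE 0.21, adjusted p = 0.00541) and ATF3 (−0.95, SE 0.21, adjusted p = 0.00186) differed less between the runs at L11 than at G98. EGR1 was lower in R2 at both stages, at −0.79 at L11. Of the lower genes, CX3CR1 was at −2.62, TLR10 at −1.86, CCR4 at −1.39 and TNFSF14 at −1.87 at L11, and the difference between stages did not pass for any of these 4.

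Other groups differed between the stages. Erythroid genes were not called at L11, at 0 of 8 tested with a median of −0.11, and HBB then ran from 32.3 to 33316 CPM in R1 (median 329) and 41.6 to 16196 CPM in R2 (median 1189) (difference between stages 3.75, SE 0.92, adjusted p = 0.00469). Nuclear oxidative phosphorylation genes had 35 higher and 4 lower at L11 (median 0.25), and the difference between stages passed for 41 of 58. Of the 45 ribosomal protein genes all were higher in R2 at L11 (median 0.56), with the difference passing for 37. For the proteasome it passed for 22 of 33 genes, with 12 higher and 5 lower at L11. For plasma cell genes it passed for 9 of 11, with 5 higher and 1 lower at L11 (median 0.12), and JCHAIN, at −1.46 at G98, was at −0.51 at L11 (0.79, SE 0.22, adjusted p = 0.0118). The interferon-stimulated list had 3 higher and 4 lower at L11, and ISG15 was at 1.78 there (1.25, SE 0.27, adjusted p = 0.00147). Collagen and stromal genes were higher in all 10 tested at L11 (median 2.72).

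**Figure D5:**
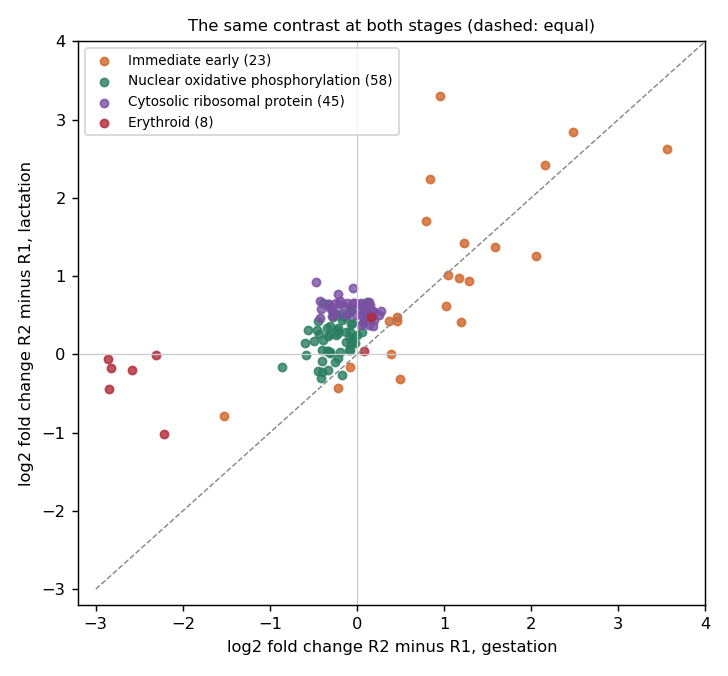
Log2 fold change of R2 minus R1 at G98 (x axis) against that at L11 (y axis) for genes of 4 lists tested at both stages, with a dashed line where they are equal. Immediate early genes lie mostly in the upper right, erythroid genes at the left near or below 0 on the L11 axis, and the ribosomal protein and oxidative phosphorylation genes mostly above the dashed line.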

How the data were processed

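Each library had 1 file listing 24358 Ensembl gene IDs. The authors deposited unscaled estimated counts (NumReads), TPM and gene lengths, per the file headers. The submitters' processing notes name the build Sscrofa11.1 together with R 4.1.2 and DESeq2, whereas no aligner or quantifier is given in the labels. Estimated counts were rounded (4.61% were not whole). Symbols matched 14692 IDs (60.3%), and gene spans are from the RefSeq annotation of Sscrofa11.1. Counts of all 182 pairs of libraries within a run differed beyond sampling noise, with chi-square values of 18.5 to 561 per degree of freedom for genes of 20 or more counts.

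R2 was compared with R1 in edgeR 4.0.16 (R 4.3.3; TMM scaling, filterByExpr by run, glmQLFit and glmQLFTest, housing and parity as covariates), with Benjamini-Hochberg adjustment over all genes and a threshold of 0.05. The script was tested on simulated data. Levels are TMM-scaled CPM. TPM entered 1 alternative as log2(TPM + 0.5) with limma 3.58.1, and DESeq2 1.42.0 was another. Library measures were compared with permutation tests in scipy 1.17.1. The members, the 37 gene lists and the tests were chosen with earlier results of these data known. Genes were named by rule: the 10 largest rises and falls (called, with a symbol, mean log2 CPM 1 or more), per list at most 3 called members of lowest p, and 2 leading genes per list. Further list members are examples, and genes outside the lists are marked where named. The fits without R1 replicates 4, 8 and 14, and the counts of genes without overlap when a library is left out, were chosen after seeing the data. Promoter and protein sequences were not used here.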

Additional observations from a re-analysis of the deposited data

Results flagged for a closer look

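The difference between the runs itself differed between the 2 stages for 2564 genes. The values below are the log2 difference of R2 minus R1 at L11 less that at G98, from the fit with a term per sow over 52 libraries (adjusted p under 0.05 for each gene named), so a positive value means that R2 stood higher against R1 at L11 than at G98. Among red cell transcripts the values were HBB at 3.75, AHSP at 3.43, HBM at 3.22, SNCG at 3.15, DMTN at 2.68 and ALAS2 at 2.37, and the secreted peroxidase GPX3 was at 2.30. Immediate early genes and genes of the largest rises had NR4A3 at 2.31, HBEGF at 1.35, CD83 at 0.81, EGR1 at 0.75, KLF6 at −0.45, JUN at −0.83 and ATF3 at −0.95. Genes of cytokines, survival, the clock and glycolysis had BCL2A1 at 0.93, PFKFB3 at 0.85, IL18 at 0.85, PER1 at 0.59 and LDHA at 0.59. Proteasome subunits had PSMA1 at 0.79, PSMA4 at 0.39, PSMA5 at 0.30, PSMB8 at 0.23 and PSMD7 at 0.22, and mitochondrial proteins had UQCR10 at 0.67, HSPE1 at 0.64, NDUFB1 at 0.58, CYCS at 0.56 and UQCRFS1 at 0.38. The ribosomal protein gene RPS16 was at 1.30 and the plasma cell genes were JCHAIN at 0.79, MZB1 at 0.61 and TNFRSF17 at 0.59. T cell genes had CD28 at 0.46, BCL11B at −0.38, FOXO1 at −0.45 and SOX13 at −0.30. Other immune genes were ISG15 at 1.25, LY96 at 0.94 and CD74 at 0.36. The remaining genes were CMSS1 at 0.57 and SMIM26 at 0.67.

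The difference between the runs at G98 also differed between the parity groups for 24 genes (edgeR's interaction test, adjusted p under 0.05). As log2 differences of R2 minus R1 in HP less that in LP, they included CCL14 at −1.03, CMSS1 at 0.65, ARHGAP15 at 0.54, HSPE1 at 0.55, NAGK at −1.15 and NDUFB1 at 0.87, all chosen after their values were seen.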

How the results depend on the processing

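The count of 4993 genes stayed within 1.5 times under DESeq2 (5193), its size factors (4990), library totals (4361), no filter (4805), the strict filter (4884), a threshold of 0.1 (5853), dominance as a covariate (4669), no covariates (4919), TPM (5145) and fits in LP (3700) or enriched (3641) sows. Each library left out in turn gave 4682 to 5105. It moved to 3191 with the erythroid level added (1455 higher, 1736 lower), 3085 in HP (1490, 1595), 1968 in conventional (876, 1092) and 2250 in intermediate sows (1130, 1120), the last 3 with fewer libraries. Library totals gave 1593 lower genes, TPM 4420 higher and 725 lower, and no filter 474 over 2-fold. Genes without overlap numbered 290, against 159 with TPM, 168 with library totals and 291 to 411 with a library left out.

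Signs changed for these named genes. With the erythroid level added, EPB42 was at 0.23, SLC4A1 0.48, DMTN 0.19, SNCG 0.10, HBM 0.083, HBB 0.017 and ALAS2 0.19, by construction near 0. With TPM, CCL14 was at 0.089, HSPE1 0.025 and CD3D 0.040. In LP sows CCL14 was at 0.34, ARHGAP15 −0.21 and NAGK 0.025, and in HP sows CMSS1 0.13, HSPE1 0.089, MS4A1 0.075, KLRK1 0.041 and CD3D 0.041. In conventional housing ARHGAP15 was at −0.051 and MS4A1 0.013, and in enriched housing COL1A1 −0.17, DCN −0.81, ISG15 −0.0017 and PPBP −0.073. In intermediate sows ARHGAP15 was at −0.018 and FOS at −0.082. The cause of each was not tested, and no named gene changed sign when a single library was left out. No paired analysis was possible because each sow at G98 is in 1 run only.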
